A study of Mus musculus with 9 samples.

Results

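CatSper is the calcium channel of the sperm tail, and the transcripts of 8 of its subunit genes were followed here in cultured mouse round spermatids (RS), the haploid cells that have finished meiosis and not yet elongated. The genes were chosen by name: Catsper1, Catsper2, Catsper3 and Catsper4, which encode the pore, and Catsperb, Catsperd, Catsperg1 and Catsperg2, which encode large accessory subunits. All 8 were among the 55414 genes listed and among the 25128 that had at least 10 counts summed over the 9 libraries and were tested.

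RS were sorted by flow cytometry from testes of adult Stra8-Tom males, older than 10 weeks and on a C57Bl/6 background, in which a Cre driven by the Stra8 promoter switches on tdTomato in germ cells. The labels give their genotype as WT, and the groups shared this genotype, the medium with lactate and pyruvate, the 24 h incubation and 0.15% DMSO. Libraries 1 to 3 came from cells with vehicle only, libraries 4 to 6 from cells with 24 mM oxamate, an inhibitor of lactate dehydrogenases, and libraries 7 to 9 from cells with 24 mM oxamate and 0.3 mM octyl-L2HG, a cell-permeable ester of L-2-hydroxyglutarate (L-2HG). The design asks which transcripts respond when the enzyme that makes L-2HG in these cells is inhibited, and which respond when L-2HG is supplied at the same time. The study describes 3 incubations per condition, and nothing in the sources used here ties the libraries to separate animals, so p-values measure the spread between these incubations.

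CATSPER1 to CATSPER4 assemble into a pore that lets calcium into the flagellum when the cell interior turns alkaline, and this influx drives the whip-like swimming called hyperactivation. The beta, gamma and delta subunits form a canopy over the pore outside the cell, and further small proteins sense calcium and pH or carry the complex into the tail. The genes are transcribed in germ cells of the testis, and male mice without a pore subunit are sterile.

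The mouse has a pair of neighbouring gamma subunit genes that are almost the same in sequence, which matters for how their reads could be counted. In an alignment of the coding sequences of their longest GENCODE M21 transcripts, Catsperg1 and Catsperg2 were identical at 3310 of 3432 aligned bases (96.4%), with an unbroken identical run of 341 bases. Of all 50-base stretches of the Catsperg1 transcript, 41% also occurred exactly in a Catsperg2 transcript, and of all 75-base stretches 29.3%. Reads from such stretches could have been given to either gene or dropped, so the split of counts between them is uncertain. The 60 coding bases with the most differences, 13 in all, are shown because they are where reads of the pair can be told apart best. They run from coding base 1652 to 1711 in each gene, and capitals mark the bases that differ.
Catsperg1: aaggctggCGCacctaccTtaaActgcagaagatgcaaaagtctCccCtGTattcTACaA
Catsperg2: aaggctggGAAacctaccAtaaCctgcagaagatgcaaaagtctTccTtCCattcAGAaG

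RefSeq promoter windows on GRCm38.p6, each reaching from upstream of a start site to 50 bases after it and 300 bases long, were at hand for 6 of the 8 genes (Catsper2, Catsper3, Catsper4, Catsperb, Catsperd and Catsperg1); Catsper1 and Catsperg2 had none in the table. Both strands were searched for TGACG, the core of the element bound by CREM, an activator of spermatid genes, for CCAAT, the box bound by NF-Y, and for ACAATG, a core bound by SOX factors. These genes have 8 windows in the table, Catsperd and Catsperg1 with 2 each. TGACG was found in 2 of the 8 windows, CCAAT in 2 and ACAATG in 0, against 20.8%, 37.4% and 12.6% of all 32851 windows in the table. Catsper2 held TGACG at 77 bases and CCAAT at 85 and 35 bases before its start, all on the opposite strand, and Catsperd held TGACG 3 times, the farthest 160 bases before its first start. Catsperb held CCAAT on the opposite strand 45 bases before its start. The stretches with these matches are printed with the matched letters in capitals (on the opposite strand TGACG reads CGTCA and CCAAT reads ATTGG); no matches overlapped. They lie at chr2:121413808-121413892 on the minus strand (Catsper2), chr17:56626872-56626960 on the plus strand (Catsperd) and chr12:101404613-101404647 on the plus strand (Catsperb). A match is a description of the letters and not evidence that a factor binds there.
Catsper2: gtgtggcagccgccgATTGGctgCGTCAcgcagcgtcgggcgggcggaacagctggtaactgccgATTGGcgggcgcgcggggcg
Catsperd: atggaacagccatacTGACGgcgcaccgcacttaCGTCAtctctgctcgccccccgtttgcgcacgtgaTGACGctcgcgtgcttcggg
Catsperb: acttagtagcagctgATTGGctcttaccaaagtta

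The libraries held 32339533 to 39888396 counted reads. Markers of the labelled cell type were present: all 10 round spermatid markers were detected and summed to 2205 to 2641 CPM (counts scaled to a library total of 1000000), the 8 spermatocyte markers to 620 to 818 CPM, and the markers of Sertoli, Leydig, myoid and immune cells and of spermatogonia to at most 4.48 CPM per list, with Fshr, a Sertoli cell receptor, at 0 in every library. The summed round spermatid markers moved with the groups without overlap, from 2536 to 2641 CPM with vehicle to 2330 to 2426 with oxamate and 2205 to 2319 when both compounds were present. Oxamate library 4 lay apart from oxamate libraries 5 and 6 (chi-square per degree of freedom 18.7 and 23.3, against 2.1 between libraries 5 and 6). Vehicle library 1 also lay farther from vehicle libraries 2 and 3 (11.9 and 11.3) than these did from each other (6.48).

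The 8 genes were well expressed in RS with vehicle. Levels between genes are compared as normalized counts (counts divided by the library's size factor) per kb of the longest coding transcript. Catsper2 was highest at 7029 ± 117 per kb (SD, n = 3), in the 98.2th percentile of the genes tested, followed by Catsper1 at 4224 ± 293. Catsper3 at 2771 ± 74.2 and Catsper4 at 2695 ± 138 overlapped between libraries, and Catsperd followed at 2350 ± 113, which is lower than either in every vehicle library. Catsperg1 at 1357 ± 119.8 and Catsperg2 at 1275 ± 93.5 overlapped, and Catsperb was lowest at 1020.1 ± 92.4, still in the 88.5th percentile. The order depends on the length used: per kb of all annotated exons together, Catsper1 at 4224 and Catsper2 at 4274 were nearly equal. Together the 8 genes took 1469 to 1562 CPM with vehicle, 1512 to 1532 with oxamate and 1564 to 1620 when both compounds were present.

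**Figure D1:**
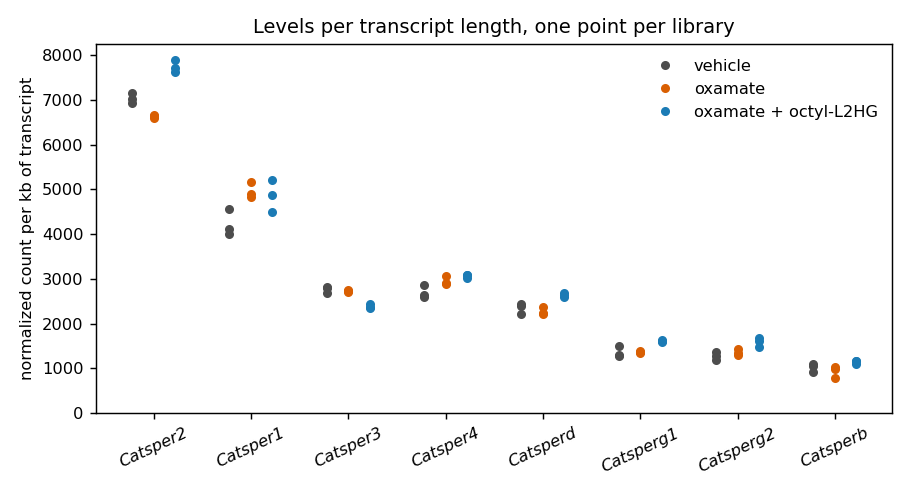
Levels of the 8 CatSper genes per transcript length. The y axis is the normalized count per kb of the longest coding transcript on a linear scale from 0, and each point is a library, coloured by group; Catsper2 and Catsper1 sit above the other 6 genes in every group.

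**Figure D2:**
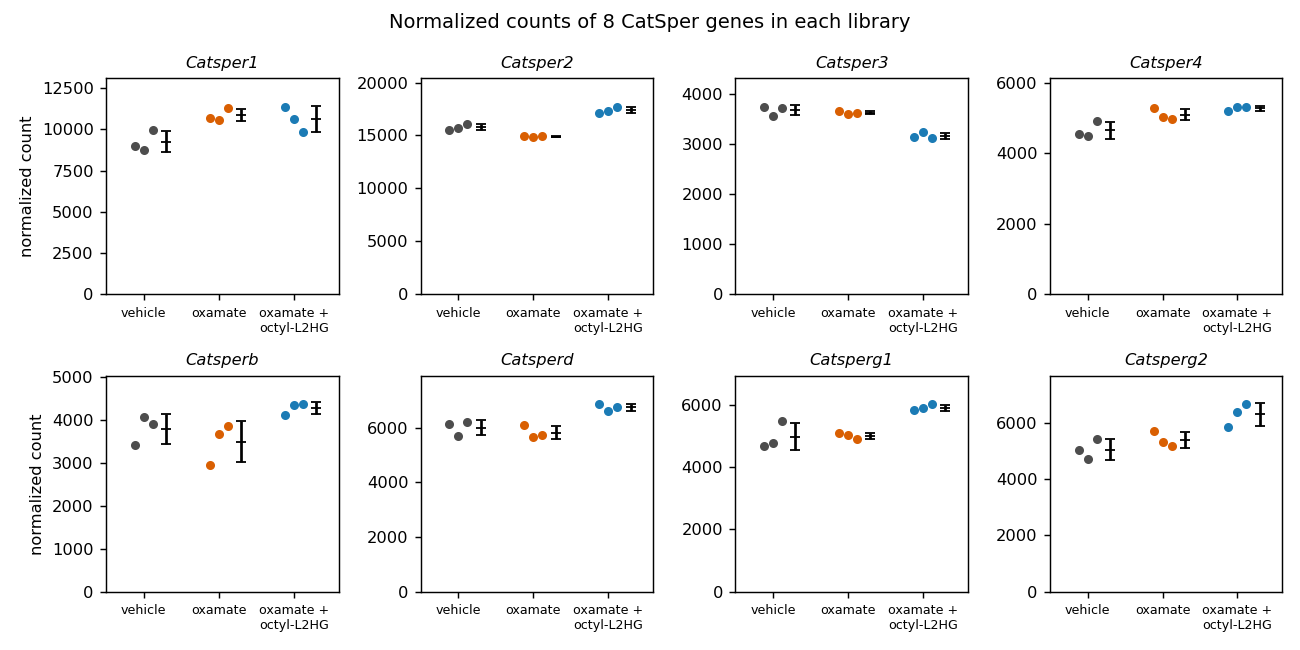
Normalized counts of the 8 CatSper genes. Each panel is a gene with its own y axis from 0, each point is a library (3 per group), and the bar beside the points is the mean ± SD; Catsper3 is the gene whose libraries with both compounds (3118 to 3239) lie below all others.

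Oxamate against vehicle asked for the response to inhibition of lactate dehydrogenase. Of the 8 genes only Catsper1 passed the test, and it rose. Background for this count is 5.19% of all genes tested, 3.97% called higher and 1.22% lower, and 6.87% of the 2415 genes at least as abundant as the least abundant of the 8 (157 higher and 9 lower). The median log2 fold change of the 8 genes was -0.0024, beside -0.011 over all genes tested. The libraries of the groups did not overlap for 3 of the 8 genes (Catsper1 and Catsper4 higher, Catsper2 lower), where 21.3% of all genes tested did not overlap.

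Octyl-L2HG with oxamate against oxamate alone asked for the response to L-2HG while the enzyme stays inhibited. Catsper2, Catsperb and Catsperg1 rose and Catsper3 fell, 4 of the 8 genes. Over all genes tested 11.2% were called, 3.18% higher and 8.06% lower, and 20.6% among the 2415 genes as abundant, of which 311 were higher and 186 lower. Scaling bears on this split: of all calls 28.3% were higher with TMM, 37.7% with DESeq2 size factors and 14.3% with total counts, and with total counts 1 of the 8 genes, Catsper3, was still called. The median log2 fold change of the 8 genes was 0.19, beside -0.038 over all genes tested and 0.05 over genes as abundant, and 6 of the 8 genes did not overlap between the groups (28.8% of all genes tested).

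Octyl-L2HG with oxamate against vehicle compares the treated cells with the untreated ones and shares its libraries with the comparisons above. Catsperg1 and Catsperg2 rose and Catsper3 fell, 3 of the 8 genes. Background was 18.0% of all genes tested, 7.48% higher and 10.6% lower, and 27.4% of genes as abundant, 489 higher and 173 lower. Of all calls in this comparison 41.4% were higher with TMM, 46.9% with DESeq2 size factors and 26.8% with total counts. The 8 genes had a median log2 fold change of 0.16 (-0.045 over all genes tested, 0.07 over genes as abundant), and 7 of 8 did not overlap, where 36.5% of all genes did not. In the test of any difference among the 3 groups, 5 of the 8 genes were called (Catsper1, Catsper2, Catsper3, Catsperg1 and Catsperg2), against 19.8% of all genes tested and 32.1% of genes as abundant. All of these calls were lost without library 8, and fewer genes passed with total counts.

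**Figure D3:**
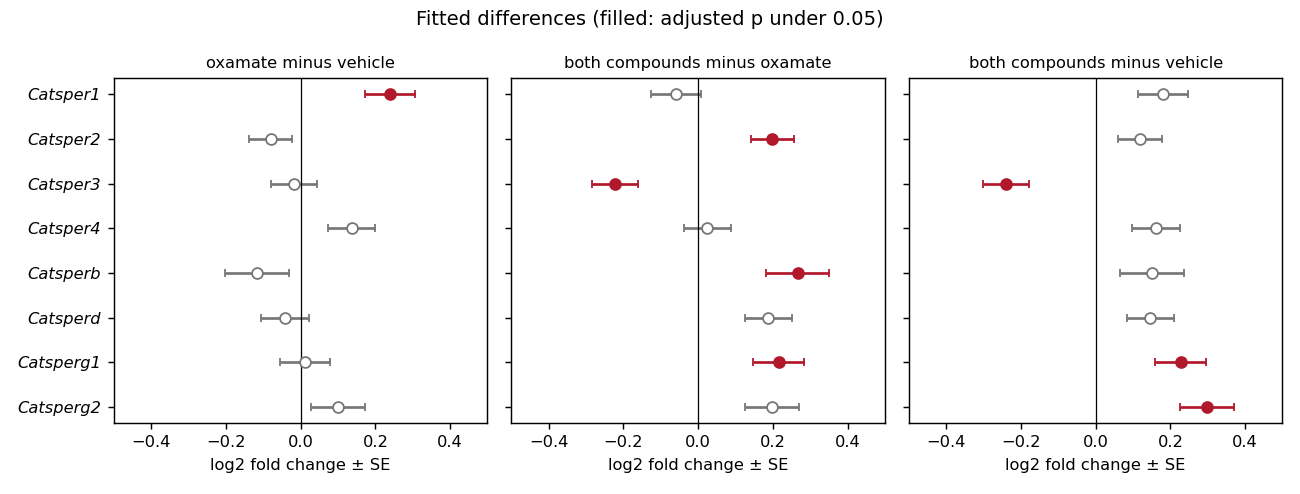
Fitted log2 fold changes of the 8 CatSper genes. The x axis is the edgeR log2 fold change with its standard error, 1 panel per comparison, and filled red points have an adjusted p under 0.05; the largest rise is 0.30 for Catsperg2 and the largest fall -0.24 for Catsper3, each with both compounds against vehicle.

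Among the pore genes, Catsper1 encodes the subunit for which the channel was first named. Its normalized counts were 8998, 8759 and 9969 with vehicle, 10715, 10588 and 11316 with oxamate, and 11389, 10649 and 9841 when both compounds were present. All oxamate libraries lay above all vehicle libraries, and library 9 brought the last group into the vehicle range. Against vehicle, oxamate raised Catsper1 by 18.0% (log2 fold change 0.24, SE 0.067, adjusted p = 0.0404), from 9242 ± 641 to 10873 ± 389. With both compounds it was 10626 ± 774, a log2 difference of -0.06 from oxamate (adjusted p = 0.67) and of 0.18 from vehicle (adjusted p = 0.0694), which passed in 8 of 16 alternative fits, DESeq2 among them (0.0389). The call with oxamate was narrow: without vehicle library 1 or 2, oxamate library 5 or 6, or library 8 or 9 the adjusted p was 0.0526 to 0.197, with a log2 fold change of 0.21 to 0.26, with only the oxamate and vehicle libraries in the fit it was 0.0906, with DESeq2 size factors 0.0556 and with total counts 0.0527.

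Catsper2 also encodes a pore subunit. The vehicle libraries held 15558, 15747.5 and 16075 normalized counts, the oxamate libraries 14954, 14808 and 14922, and those with both compounds 17135, 17339.6 and 17734. The groups separated fully, with oxamate lowest and both compounds highest. The fall of 5.4% with oxamate did not pass the test (log2 fold change -0.08, SE 0.058, adjusted p = 0.53). Octyl-L2HG with oxamate raised it by 14.8% over oxamate alone (log2 fold change 0.20, SE 0.058, adjusted p = 0.0285), and the difference of 0.12 from vehicle did not pass (adjusted p = 0.173). Without oxamate library 5 or 6, or library 7, 8 or 9, the adjusted p of the rise was 0.0632 to 0.115 with a log2 fold change of 0.18 to 0.21. In GENCODE M21, 18 exon bases of Catsper2 lie opposite exons of its neighbour Pdia3. The methods name a stranded library kit, but the strand setting of the counting is not given in the sources used here.

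Catsper3, the third pore gene, moved the other way. Its normalized counts were 3752, 3572 and 3732 with vehicle, 3669.6, 3594 and 3631 with oxamate, and 3151, 3239 and 3118 when both compounds were present. All libraries with both compounds lay below the other 6. Oxamate alone left a log2 difference of -0.017 (SE 0.062, adjusted p = 0.939). Octyl-L2HG with oxamate lowered Catsper3 by a log2 fold change of -0.22 (SE 0.062, adjusted p = 0.0228) against oxamate and -0.24 (SE 0.062, adjusted p = 0.00897) against vehicle, from 3685 ± 98.7 with vehicle to 3169.6 ± 62.5. The fall from vehicle was called with any 1 library left out (adjusted p at most 0.0421) and was lost only when no genes were filtered for low counts (0.0669). The fall from oxamate was lost in that setting too (0.142), and without oxamate library 5 or library 7, 8 or 9 (0.0724 to 0.0878, log2 fold change -0.24 to -0.21).

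Catsper4 is the remaining pore gene. Normalized counts of 4543, 4483 and 4922 were found with vehicle, of 5277, 5034 and 4965 with oxamate, and of 5189, 5321 and 5314 when both compounds were present. Vehicle was lowest, and the other groups overlapped. The log2 fold changes of 0.14 with oxamate (SE 0.064, adjusted p = 0.274) and 0.16 with both compounds (SE 0.064, adjusted p = 0.0876) against vehicle did not pass the test. The latter passed in 6 of 16 alternative fits: with DESeq2 (adjusted p = 0.0287), with no filter (0.0391), with filterByExpr (0.0419), with only the groups compared (0.0249), and without vehicle library 3 (0.0474) or oxamate library 4 (0.021). Octyl-L2HG with oxamate differed from oxamate by 0.025 (adjusted p = 0.875), a value that turned to -0.019 when total counts set the scaling.

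Ratios between pore genes within a library need no scaling between libraries. They were formed after the values were seen and are given without a test. The ratio of Catsper3 to Catsper2 counts was 0.227 to 0.241 with vehicle, 0.243 to 0.245 with oxamate and 0.176 to 0.187 when both compounds were present. The last group lay below all other libraries. The ratio of Catsper1 to Catsper2 was 0.556 to 0.62 with vehicle, 0.715 to 0.758 with oxamate and 0.555 to 0.665 when both compounds were present, so that only the oxamate libraries stood apart.

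**Figure D4:**
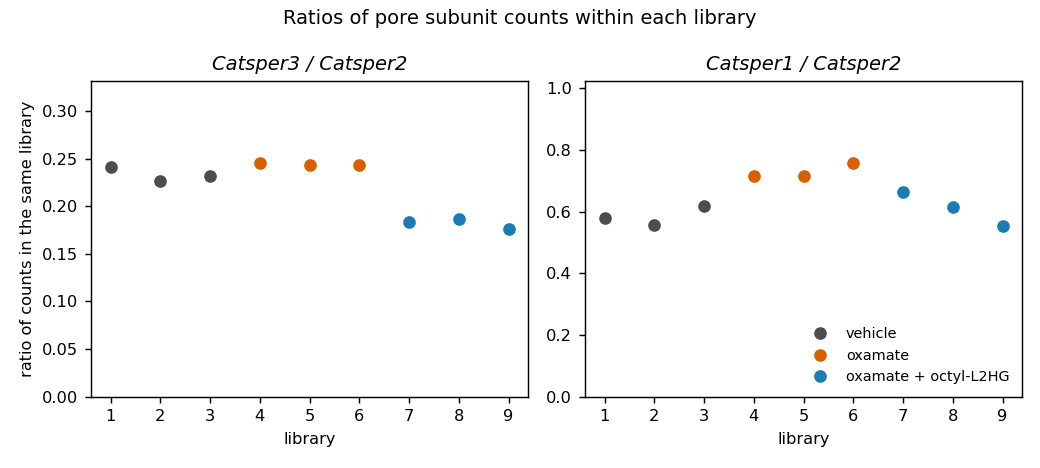
Ratios of Catsper3 and of Catsper1 to Catsper2 counts in each library. The y axes are linear ratios from 0 and the x axes give the library number, coloured by group; Catsper3 to Catsper2 is at most 0.187 in the 3 libraries with both compounds and at least 0.227 in the other 6.

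Among the accessory genes, Catsperb encodes the beta subunit. Its normalized counts were 3404, 4059 and 3909 with vehicle, 2955, 3671 and 3846 with oxamate, and 4102, 4345 and 4360.5 when both compounds were present. Library 4 was the lowest of all, and each library with both compounds was above all others. Octyl-L2HG with oxamate raised Catsperb by 20.3% over oxamate (log2 fold change 0.27, SE 0.085, adjusted p = 0.0472), and its differences of -0.12 with oxamate (adjusted p = 0.541) and 0.15 with both compounds (adjusted p = 0.253) from vehicle did not pass. Those differences ran from -0.19 without vehicle library 1 to -0.013 without oxamate library 4, and from 0.079 without vehicle library 1 to 0.21 without vehicle library 2. The size rested in part on library 4: without it the log2 fold change was 0.16 and the adjusted p 0.0845. The call was also lost with only the groups compared (0.0514) and without vehicle library 2 or 3, oxamate library 5 or library 7, 8 or 9 (adjusted p = 0.0528 to 0.165, log2 fold change 0.25 to 0.30). Libraries 1 and 4, the lowest of their groups for Catsperb, also held the lowest sums of the spermatocyte markers. These were 620 and 636 CPM against 759 to 818 in the other 7. Of these markers, Spo11 was instead highest of its group there (1856 and 1843 normalized counts), and Hormad1 was not lowest in library 1. Among round spermatid markers, Acrv1, Spaca1 and Izumo1 were also lowest of their groups there, and Acr, Pgk2 and Tssk6 highest. The study's DNA content check gave the sorted RS as haploid. Which cells held these transcripts, and their part in the Catsperb values, was not tested.

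Catsperd encodes the delta subunit. It reached normalized counts of 6128, 5679.8 and 6217 with vehicle, 6085, 5645 and 5725 with oxamate, and 6859, 6621 and 6768 when both compounds were present. The last group lay above the others, which overlapped. None of the differences passed under the TMM scaling and filter used: the log2 fold change was -0.042 with oxamate against vehicle (adjusted p = 0.814), 0.19 with both compounds against oxamate (SE 0.064, adjusted p = 0.0605) and 0.15 against vehicle (SE 0.064, adjusted p = 0.121). The difference from oxamate passed in 7 of 16 alternative fits: with DESeq2 (adjusted p = 0.0109), with DESeq2 size factors in edgeR (0.0334), with no filter (0.0211), with filterByExpr (0.0271), with only the groups compared (0.0363), and without vehicle library 3 (0.0455) or oxamate library 4 (0.00503). That from vehicle passed in 3, with DESeq2 (0.0484), with only the groups compared (0.0368) and without oxamate library 4 (0.0338).

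Catsperg1 and Catsperg2 encode gamma subunits and share the stretches of sequence described above. Catsperg1 had normalized counts of 4679.7, 4778 and 5486 with vehicle, 5086, 5036 and 4896 with oxamate, and 5837, 5889 and 6023 when both compounds were present. Catsperg2 had 5012, 4692 and 5429.8 with vehicle, 5712, 5296 and 5156 with oxamate, and 5849.8, 6380.5 and 6651 when both compounds were present. For each gene the libraries with both compounds were above the other 6, and vehicle and oxamate overlapped.

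With both compounds Catsperg1 rose by 16.1% over oxamate (log2 fold change 0.22, SE 0.068, adjusted p = 0.0424) and by 17.1% over vehicle (0.23, SE 0.068, adjusted p = 0.0214). Catsperg2 rose by 23.0% over vehicle (log2 fold change 0.30, SE 0.072, adjusted p = 0.00548), and its difference of 0.20 from oxamate did not pass (SE 0.072, adjusted p = 0.0839) but did in 6 of 15 alternative fits, with DESeq2 (0.0291), DESeq2 size factors in edgeR (0.0467), no filter (0.0148), filterByExpr (0.0462), only the groups compared (0.0485) and without oxamate library 4 (0.00551). Oxamate alone left log2 differences of 0.012 for Catsperg1 (adjusted p = 0.965) and 0.10 for Catsperg2 (adjusted p = 0.531). Catsperg2 against vehicle was called in each of its 15 alternative fits, with a log2 fold change from 0.24 to 0.37. For Catsperg1 the rise over oxamate was lost without vehicle library 2, oxamate library 5 or 6 or library 7, 8 or 9 (adjusted p = 0.0503 to 0.148), and the rise over vehicle without vehicle library 1 or 2 or library 7, 8 or 9 (0.0529 to 0.0973) and with total counts (log2 fold change 0.16, adjusted p = 0.0914). Since their reads could be split either way, the counts of the pair were also summed, which gave a log2 fold change of 0.26 (SE 0.068, adjusted p = 0.00775) over vehicle and 0.21 (adjusted p = 0.0497) over oxamate.

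Other transcripts of spermatids changed in the same libraries. Of the 10 round spermatid markers, 4 fell with oxamate against vehicle, 5 fell with both compounds against oxamate, and with both compounds against vehicle 5 fell (Tnp1, Tnp2, Prm1, Prm2, which pack sperm DNA, and the kinase Tssk6) and 2 rose (Acr and Acrv1, of the acrosome). Over all genes tested 1.22%, 8.06% and 10.6% were called lower in these comparisons, and 7.48% higher in the last. Of the 8 spermatocyte markers, 1 rose with both compounds against oxamate, where 11.2% of all genes tested were called, and none passed in the other comparisons (3 in each at an unadjusted p under 0.05). Their part in the CatSper differences was not tested. In these bulk libraries a change in the mix of spermatid stages and a change of RNA per cell cannot be told apart.

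Correlations between the 8 genes, computed from TMM-scaled log2 CPM, are given as a description over 9 libraries that share depth and scaling. They were negative for Catsper3 with each of the other genes, from -0.262 with Catsper1 to -0.851 with Catsper2. Among the other 7 genes, Catsper1 was also negative with Catsper2 (-0.165) and Catsperb (-0.119), and Catsper4 with Catsperb was at -0.00145. The gamma genes were the most alike at 0.896, a value that their shared sequence stretches make uncertain. Catsper2 with Catsperd followed at 0.862. Among 10707 other genes averaging 100 normalized counts or more, the closest to Catsper3 was Aqp7, an aquaglyceroporin (r = 0.992), to Catsper1 Plcl1 (0.986), to Catsper2 Fam118a (0.985), to Catsper4 Aqr (0.98), to Catsperb Ranbp9 (0.984), to Catsperd Slc26a8, a sperm anion transporter (0.973), to Catsperg1 Foxk2 (0.966) and to Catsperg2 Glb1l (0.969). Closest to the mean profile of the 8 genes were Foxk2 (0.987), Nup210l (0.987), Nsd2 (0.968), Appl2 (0.967) and Hps5 (0.966). All of these are the top values of a search over 10707 genes in 9 libraries, and no typical r is given for comparison.

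Of 8 further genes of the complex, all tested, 0 were called with oxamate against vehicle (1 at an unadjusted p under 0.05), 2 with both compounds against oxamate and 1 with both compounds against vehicle. Over all 25128 genes tested 5.19%, 11.2% and 18.0% were called in these comparisons, and 4348 had an unadjusted p under 0.05 in the first. C2cd6, which helps to bring the channel into the flagellum, had the highest level per kb of all the complex genes at 16798 with vehicle. In normalized counts, C2cd6 was at 30115, 40331 and 36945 with vehicle, 28569.6, 33159 and 32163 with oxamate, and 39316, 40661 and 40459 when both compounds were present. The vehicle libraries spread over most of the range of the other groups. Libraries 1 and 4, lowest in the sum of spermatocyte markers but not in each of them, were again the lowest of their groups. What part the mix of cells had in this was not tested. C2cd6 rose with both compounds over oxamate (log2 fold change 0.33, SE 0.083, adjusted p = 0.0108), a call lost without library 8 or 9 (0.0565 in each case). Tmem262, a small membrane protein of the complex, had 733, 716 and 727 with vehicle, 795, 728 and 627 with oxamate, and 493, 531 and 696 when both compounds were present. Tmem262 fell with both compounds, with a log2 fold change of -0.34 (SE 0.111, adjusted p = 0.0481) from oxamate and -0.36 (SE 0.11, adjusted p = 0.0274) from vehicle. Library 9 lay apart from 7 and 8 and overlapped the oxamate range. The first call was lost without vehicle library 2 or 3, oxamate library 4 or 5 or library 7 or 8 (adjusted p = 0.0684 to 0.271, log2 fold change -0.34 to -0.24), with DESeq2 size factors (0.0588), with filterByExpr (0.063) and with only the groups compared (0.0936), and the second without vehicle library 1, 2 or 3 or library 7 or 8 (0.0551 to 0.192, -0.36 to -0.25). Without library 9 the log2 fold changes were -0.52 and -0.53.

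The other 6 genes of the complex did not pass with edgeR as fitted here. Slco6c1, an organic anion transporter of the complex, averaged 12562 ± 622 with vehicle, 12209.6 ± 1101 with oxamate and 14339.5 ± 219.8 when both compounds were present, the last above all other libraries (log2 fold change 0.21 against oxamate, adjusted p = 0.053, and 0.017 with DESeq2, where it was called). Libraries 1 and 4 were the lowest of their groups for this gene too (12109 and 10971). Efcab9, the calcium sensor that binds the zeta subunit, averaged 8013 ± 214, 8322 ± 315 and 7555 ± 262, the last below all other libraries (-0.17 against oxamate, adjusted p = 0.0868). Catsperz, which encodes that zeta subunit, averaged 9358 ± 581, 8832 ± 794 and 8615 ± 145. Tmem249 averaged 1078 ± 81.3, 1144 ± 62.7 and 1057 ± 72.5. Catspere1 and Catspere2 are named for the epsilon subunit. Catspere1 averaged 954 ± 58.1, 978 ± 107.5 and 1023 ± 9.97, and Catspere2 540.2 ± 25.6, 531 ± 63.0 and 541 ± 28.0. The median log2 fold change of the 8 further genes was -0.017, -0.03 and -0.034 in the 3 comparisons.

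A wider list of 23 genes for sperm ion transport and motility signalling set the channel beside its partners, and 22 of them were tested. With oxamate against vehicle 2 rose and 1 fell, with both compounds against oxamate 3 rose and 6 fell, and with both compounds against vehicle 3 rose and 5 fell. The last balance depended on the fit: it was 6 up and 3 down with no filter, 6 and 5 with only the groups compared, and 4 and 4 with DESeq2 size factors. The shares called among all genes tested, 5.19%, 11.2% and 18.0%, and among genes as abundant as the CatSper genes, 6.87%, 20.6% and 27.4%, stand beside 3, 9 and 8 of the 22. Cftr, a chloride and bicarbonate channel, changed the most among those called, from 1496 ± 229 with vehicle and 1584 ± 279 with oxamate to 1037 ± 45.4 with both compounds (log2 fold change -0.64 from oxamate, adjusted p = 0.00068, and -0.55 from vehicle, adjusted p = 0.00111). Camk4, a calcium and calmodulin-dependent kinase, fell by 0.36 on the log2 scale from oxamate (adjusted p = 0.00295) and by 0.35 from vehicle (0.0018). Lrrc52, the accessory subunit of the sperm potassium channel, fell by 0.33 from each (0.00281 and 0.00163). All libraries with both compounds lay below the other 6 for these genes.

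The members of the list that rose included Cacna1h, a T-type calcium channel. It rose with oxamate from 14282 ± 1266 to 18158 ± 2403 (log2 fold change 0.35, SE 0.081, adjusted p = 0.011), and to 20207 ± 297 with both compounds (0.48 over vehicle, adjusted p = 0.000214). The call with oxamate was lost without vehicle library 2 (0.29, adjusted p = 0.104) and with only the groups compared (adjusted p = 0.0606), and without oxamate library 4 the log2 fold change was 0.23 (adjusted p = 0.00939). Atp2b4, a plasma membrane calcium pump, rose by 0.34 with oxamate (adjusted p = 0.00229) and by 0.33 with both compounds (0.00102) over vehicle. Pkdrej, a sperm surface protein of the polycystin family, rose by 0.33 with both compounds over vehicle (adjusted p = 0.002). For Cftr, Camk4, Lrrc52, Atp2b4 and Pkdrej each call named here held with any 1 library left out.

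**Figure D5:**
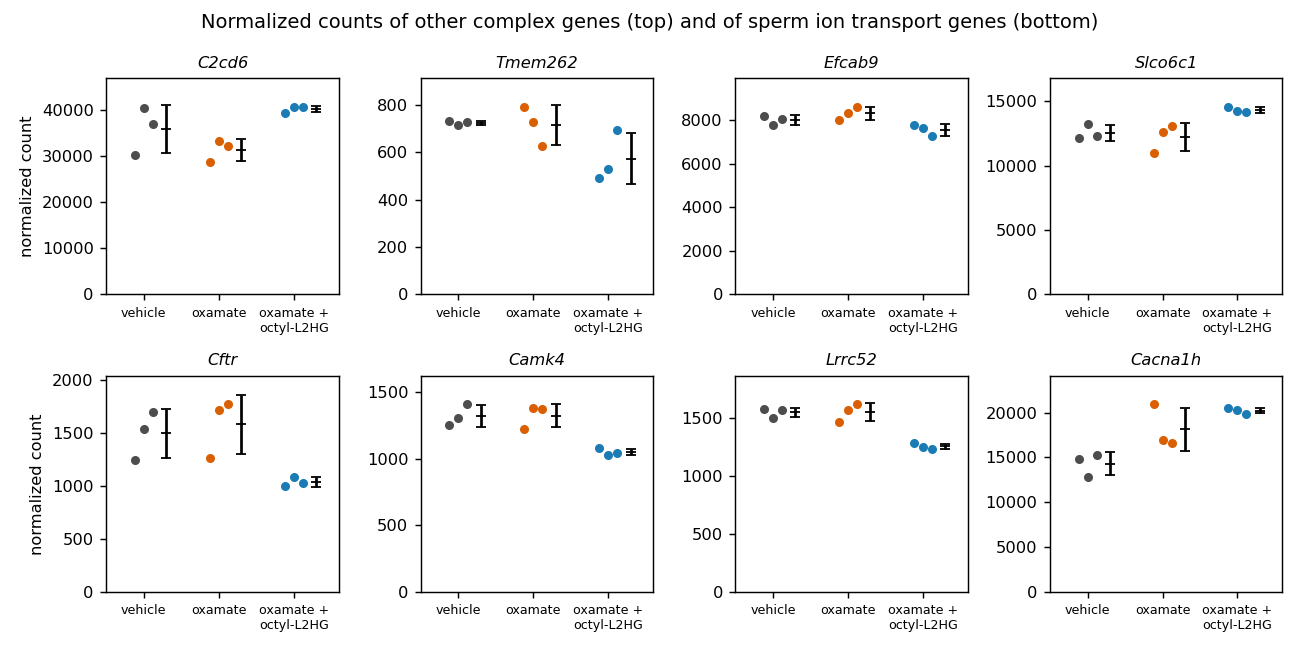
Normalized counts of 4 further genes of the CatSper complex (top) and of 4 genes of sperm ion transport and signalling (bottom). Each panel has its own y axis from 0, each point is a library and the bar is the mean ± SD; for Cftr, Camk4 and Lrrc52 the libraries with both compounds lie below the other 6, while Tmem262 spreads between libraries of that group.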

How the data were processed

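Round spermatid RNA was measured by polyA RNA-seq in 9 libraries, 3 per group. Per the study's methods and the submitters' notes, the authors trimmed reads (cutadapt 2.10), aligned them to GRCm39 (TopHat2 2.1.1) and counted reads per gene (HTSeq 2.01). The labels also list WBcel235, a nematode build, and the methods print the mouse build under a different name. The deposited counts are raw. The authors also deposited a normalized signal, each count divided by a DESeq2 1.36.0 size factor of its library, which was used for printed levels. The methods name a stranded library kit for cultured cells, but the strand setting of the counting is not given in the sources used here. Labels and methods name different sequencers.

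Of 55414 rows, 6250 were blank. Genes with at least 10 summed counts entered edgeR 4.0.16 under R 4.3.3 (TMM, robust quasi-likelihood fit of all 9 libraries, group as the only term), with Benjamini-Hochberg adjustment over all 25128 genes and a threshold of 0.05. Standard errors are the log2 fold change divided by the root of the F statistic. Depth was 32339533 to 39888396 counts, and the lowest mean normalized count among the 8 genes was 3495. Alternatives were DESeq2 1.42.0, other scalings, filters and thresholds, fits of 2 groups only, each library left out, and the gamma genes summed.

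The genes, the lists and the naming rule were chosen with earlier results of these data known. The rule names the 8 genes, the 8 further complex genes and the 6 called genes of the ion list with the largest change. Transcript lengths and sequences came from GENCODE M21 and RefSeq (GRCm38), matched by identifier for 99.6% of genes or by symbol, and no position was carried to GRCm39. Counts of every replicate pair differed by more than sampling noise.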

Additional observations from a re-analysis of the deposited data

How the results depend on the processing

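With oxamate against vehicle 1 of the 8 CatSper genes was called. The count was 0 with DESeq2 size factors, with total counts, with only the groups compared and at an adjusted p under 0.01, 2 at an unadjusted p under 0.05, and 0 to 1 with a library left out. For both compounds against oxamate (4) it was 6 with DESeq2, with DESeq2 size factors and with filterByExpr, 5 with no filter (5 higher and 0 lower), 1 with total counts, 0 at 0.01, and 0 to 5 with a library left out, reaching 0 without oxamate library 5 or library 7, 8 or 9. For both compounds against vehicle (3) it was 6 with DESeq2 (5 higher and 1 lower), 5 with filterByExpr and 6 with only the groups compared. It was 6 unadjusted, 2 to 6 with a library left out (6 without oxamate library 4), and held only rises with no filter. For any difference (5) it was 7 with DESeq2 and with DESeq2 size factors, 3 with total counts, 0 at 0.01, 8 unadjusted and 0 to 6 with a library left out (0 without library 8). For the further complex genes the counts (0, 2 and 1 in the order above) became 1, 4 and 2 unadjusted and 0, 0 and 0 at 0.01. For both compounds against oxamate the count was 3 with DESeq2, with no filter and with total counts, and 1 with only the groups compared, and for both compounds against vehicle it was 2 with only the groups compared, 2 with total counts and 3 with no filter. With a library left out they ranged over 0 to 1, 0 to 3 and 0 to 3. For the ion list (3, 9 and 8) oxamate against vehicle gave 1 with only the groups compared, 1 at 0.01 and 6 unadjusted, and both compounds against oxamate gave 5 at 0.01. For both compounds against vehicle its 3 higher and 5 lower became 6 and 3 with no filter. With a library left out the ranges were 1 to 3, 3 to 12 and 6 to 12.

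The sign turned for Catsperg1 with oxamate against vehicle (-0.0067 with total counts, -0.030 to 0.077 with a library left out) and for Catsper4 with both compounds against oxamate (-0.019 with total counts). The cause of these changes was not tested. Of 602 refits of the log2 fold changes named, 506 kept sign and side of the threshold, 61 lost the call and 30 gained it. No paired analysis was possible because the labels number the libraries 1 to 9 and no number is shared between groups. The lowest mean among the 8 genes was 3495 normalized counts, and what depth limits for them was not tested separately.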
